A study of Homo sapiens with 6 samples.

Results

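The 4 HOX gene clusters of the human genome were read as 59 windows of 10 kb, out of 303641 windows in the deposited table, of which 278395 held a mean of at least 10 reads over the 6 libraries and were compared. A window was a member when its start fell in the HOXA range (chromosome 7, 27120001 to 27260000, 14 windows), the HOXB range (chromosome 17, 46600001 to 46810000, 21 windows), the HOXC range (chromosome 12, 54330001 to 54450000, 12 windows) or the HOXD range (chromosome 2, 176940001 to 177060000, 12 windows), all in hg19. All 59 passed the count minimum. The 500 kb on each side, 100 windows per cluster, served as the local reference. The libraries came from chromatin immunoprecipitation and sequencing (ChIP-seq) of T47D-MTVL, a line of hormone-responsive human breast cancer cells that carries an integrated mouse mammary tumour virus reporter. Cells kept in hormone-depleted serum and then without serum were fixed at 0 min, with no hormone, or after 5 or 30 min with 10 nM of the progestin R5020. Antibodies were against CDK2, a cyclin-dependent kinase, or PARP1, which attaches ADP-ribose chains to proteins. Each antibody and time had 1 library, so no value below has an error between replicates, and no difference has a replicate check or a test. No input library was analysed here, so the copy number of this aneuploid line, mappability and base composition cannot be told apart from occupancy in the level of any 1 library.

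HOX genes encode transcription factors with a homeodomain, which binds DNA. They set positional identity along the body axis and lie in 4 clusters that arose by duplication, so that members at the same place in different clusters are paralogues and carry the same number. In each cluster the low numbers sit at the end that is active earliest and most anteriorly in the embryo, and the high numbers at the other end. In adult tissues the clusters are known as large domains that Polycomb proteins silence in part, and several HOX genes are active in breast epithelium. HOXB13 is known in breast cancer as a marker linked to the response to endocrine therapy.

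The gene table, from RefSeq on GRCh38.p14 and so used only for names and order, held all 38 listed genes. Along chromosome 7 the order was HOXA2, HOXA3, HOXA4, HOXA5, HOXA6, HOXA7, HOXA9, HOXA10, HOXA11 and HOXA13, with EVX1, a homeobox gene of another family, as the next protein-coding gene. Along chromosome 17 it was HOXB1, HOXB2, HOXB3, HOXB4, HOXB5, HOXB6, HOXB7, HOXB8, HOXB9 and HOXB13, between SKAP1 and TTLL6. The other 2 clusters run the opposite way along their chromosomes. On chromosome 12 the order was HOXC13, HOXC12, HOXC11, HOXC10, HOXC9, HOXC8, HOXC6, HOXC5 and HOXC4, between CALCOCO1 and SMUG1. On chromosome 2 it was HOXD13, HOXD12, HOXD11, HOXD10, HOXD9, HOXD8, HOXD4, HOXD3 and HOXD1, between EVX2 and MTX2. Since the gene positions were of another build than the counts, no window was assigned to a single gene.

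RefSeq promoters, which run from 250 bases before to 50 after a start, were at hand for 20 of the 38 genes, 26 distinct promoters in all. Paralogue groups 4 and 13, which have a member in each of the 4 clusters, are shown where a promoter was at hand in HOXA, HOXC or HOXD. They let a reader see how promoters of paralogues differ in their bases. Each line gives the 250 bases before the start, from the 5′ to the 3′ end on the gene's strand, with every CpG in capitals. HOXA4 is at chr7:27130758-27131007 on the minus strand, HOXC4 at chr12:54016638-54016887 on the plus strand, HOXD4 at chr2:176151300-176151549 on the plus strand, HOXA13 at chr7:27200092-27200341 on the minus strand and HOXD13 at chr2:176092471-176092720 on the plus strand, all in GRCh38.p14. HOXC4 and HOXC5 share the start of the HOXC4 line in the table, so it need not lie at the place of HOXC4 within its cluster.
HOXA4: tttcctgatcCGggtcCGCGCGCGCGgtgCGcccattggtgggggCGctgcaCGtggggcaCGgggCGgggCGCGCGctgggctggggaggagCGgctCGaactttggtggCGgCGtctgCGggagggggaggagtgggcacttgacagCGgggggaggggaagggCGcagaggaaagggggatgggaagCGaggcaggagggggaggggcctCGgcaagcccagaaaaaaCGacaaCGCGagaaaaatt
HOXC4: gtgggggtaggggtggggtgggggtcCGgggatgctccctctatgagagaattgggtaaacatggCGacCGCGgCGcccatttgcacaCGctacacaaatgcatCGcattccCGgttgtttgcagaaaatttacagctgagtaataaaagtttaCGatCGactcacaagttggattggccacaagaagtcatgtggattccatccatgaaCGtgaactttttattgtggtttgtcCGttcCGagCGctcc
HOXD4: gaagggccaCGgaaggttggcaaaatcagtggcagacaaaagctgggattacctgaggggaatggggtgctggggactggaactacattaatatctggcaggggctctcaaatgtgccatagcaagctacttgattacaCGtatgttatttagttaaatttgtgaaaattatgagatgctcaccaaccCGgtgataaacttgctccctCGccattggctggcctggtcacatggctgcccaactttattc
HOXA13: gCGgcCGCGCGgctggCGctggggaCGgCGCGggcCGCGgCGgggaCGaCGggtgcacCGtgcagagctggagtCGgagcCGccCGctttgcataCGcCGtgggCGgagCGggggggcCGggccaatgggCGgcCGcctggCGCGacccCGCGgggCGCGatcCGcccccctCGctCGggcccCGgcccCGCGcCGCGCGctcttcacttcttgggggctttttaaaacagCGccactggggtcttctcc
HOXD13: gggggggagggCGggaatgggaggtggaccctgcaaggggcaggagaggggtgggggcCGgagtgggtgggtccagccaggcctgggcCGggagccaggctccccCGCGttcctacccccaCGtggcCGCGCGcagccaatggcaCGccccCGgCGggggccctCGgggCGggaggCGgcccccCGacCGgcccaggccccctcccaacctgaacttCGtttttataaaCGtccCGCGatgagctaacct

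These 250 bases held 26 CpG in HOXA4, 14 in HOXC4 and 4 in HOXD4, and 40 in HOXA13 against 21 in HOXD13. Over the 26 HOX promoters of 300 bases the median was 22.5 CpG, beside 14 over all 34943 promoters in the table, while the median G and C content was 58.0% beside 58.7%. Of the 26, 16 were of HOXA and 8 of HOXD, so these medians describe mostly those clusters. HOXB had 1 promoter, with 11 CpG, and HOXC 1, with 15. The progesterone receptor binds inverted repeats of a hexamer. The motif GNACANNNTGTNC, sought on both strands, was in 0 of the 26 HOX promoters and in 0.389% of all promoters. The single hexamer TGTTCT or its complement AGAACA was in 4 of 26, those of HOXA9, HOXA11, HOXC4 with HOXC5, and 1 of the 7 of HOXA3, which is 15.4% beside 14.8% of all promoters. A match to letters describes the sequence and is not a binding site.

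The clusters also hold microRNA genes, which show their shared origin in the sequence itself. The mature products of MIR196B, next to HOXA9 and HOXA10, of MIR196A1 in HOXB and of MIR196A2 in HOXC are given with the seed, bases 2 to 8, in capitals.
hsa-miR-196b-5p, HOXA: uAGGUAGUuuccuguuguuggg
hsa-miR-196a-5p, HOXB and HOXC: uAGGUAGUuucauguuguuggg

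The HOXB and HOXC copies give the same mature sequence, and all 3 genes share the seed AGGUAGU. Only these 2 of the 2370 mature microRNAs in the table carry it.

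The libraries held 55772389, 58495554 and 63448449 reads for PARP1 at 0, 5 and 30 min, and 45111064, 57793168 and 40097131 for CDK2. Reads were unevenly spread in some of them. Dispersion, the robust variance between neighbouring windows over that of independent reads, was 6.11, 11.4 and 8.62 for PARP1 and 7.43, 52.2 and 24.0 for CDK2. Both kinds of interval below are 95% intervals. One covers counting error only. A widened one multiplies the variance by the dispersion of the library or, for ratios of libraries, by that of the comparison around its local ratio. For single windows the reads were instead divided by the dispersion of the comparison. That dispersion was 6.41 and 4.75 for PARP1 at 5 and 30 min against 0 min, and 24.5 and 14.4 for CDK2. It also contains real differences between windows. The widened interval is the one given unless stated.

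Before hormone, HOXA held fewer reads of both proteins, and HOXD fewer CDK2 reads, than the 500 kb on each side, while the other levels had intervals that included 1. In HOXA the mean window held 263 PARP1 reads, beside 305 in the flanks, a level of 0.861 (counting interval 0.832 to 0.891, widened 0.792 to 0.937). CDK2 had 213 reads beside 241, a level of 0.887 (0.799 to 0.984). Both were thus below the flanks, with 3 of the 14 windows above the flank mean for PARP1 and 4 for CDK2. Against 200 kb on each side in place of 500 kb, the levels were 0.933 and 0.974, and both intervals then included 1.

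At 0 min HOXB had a level of 0.999 (0.931 to 1.07) for PARP1 and 0.982 (0.901 to 1.07) for CDK2. HOXC had 1.02 (0.934 to 1.12) and 1.08 (0.973 to 1.20). The CDK2 level of HOXC was clear above 1 against 200 kb flanks, at 1.13, against 1000 kb flanks, at 1.12, and against the higher-coordinate flank alone, at 1.18, where PARP1 had 1.11, also clear of 1. Against the lower-coordinate flank alone HOXC had 1.00 for CDK2 and 0.941 for PARP1. HOXB lay between unequal sides, with a PARP1 level of 0.904 against the lower-coordinate flank and 1.12 against the other, and both intervals left out 1. HOXD had 0.907 (0.802 to 1.03) for PARP1, which includes 1, and 0.838 (0.715 to 0.982) for CDK2. Without its first and last window the CDK2 level of HOXD was 0.861, with an interval that included 1.

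In absolute depth HOXD stood apart. Its windows held 143 ± 13.9 PARP1 reads at 0 min (mean ± SD over 12 windows), between 118 and 163. HOXA held 263 ± 39.1 over 14 windows, between 209 and 339. HOXB held 268 ± 35.7 over 21 windows, between 220 and 361, and HOXC 278 ± 32.9 over 12 windows, between 234 and 321. The highest HOXD window was thus below the lowest window of any other cluster, while HOXA, HOXB and HOXC overlapped and differed in their means by less than the SD of their windows. The chromosomes differed in the same order, with a median window of 0.824 times the library median on chromosome 2, 1.06 on chromosome 7, 1.31 on chromosome 17 and 1.53 on chromosome 12. Against its own chromosome's median window HOXD had 0.952, HOXC 0.995, HOXB 1.12 and HOXA 1.36.

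**Figure D1:**
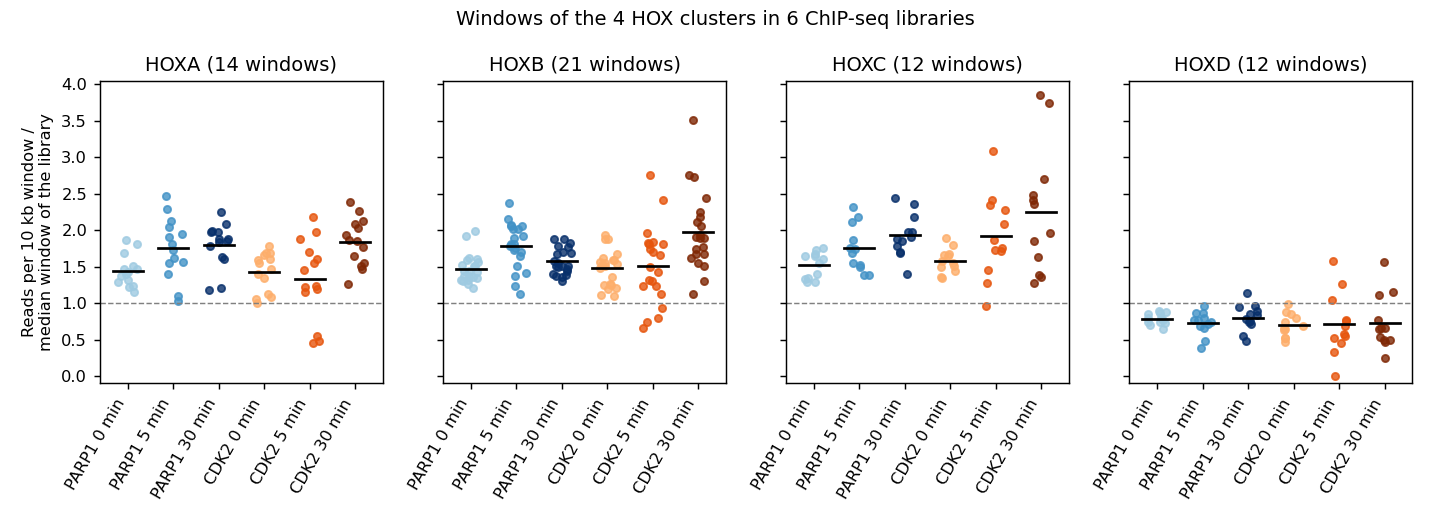
Reads in each 10 kb window of the 4 HOX clusters, divided by the median window of the same library (vertical axis, dashed line at 1), for 3 PARP1 (blue) and 3 CDK2 (orange) libraries at 0, 5 and 30 min. Each point is a window and each bar the mean over windows. Windows of HOXD have the lowest mean in each library, and in each cluster CDK2 windows are more scattered at 5 and 30 min than at 0 min. Relative to the mean this does not hold for HOXA at 30 min, with an SD of 17.6% of the mean beside 18.6% at 0 min.

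The series was designed around the activation of PARP1 by CDK2 after progestin. In HOXA the PARP1 level against the flanks was 0.861 (0.792 to 0.937) at 0 min, 1.07 (0.964 to 1.18) at 5 min and 1.08 (0.992 to 1.18) at 30 min, so the interval left out 1 before hormone and included it after. The mean HOXA window held 263, 338 and 373 reads at these times, and the mean flank window 305, 316 and 345. The change against the flanks was 1.24 (1.10 to 1.39) at 5 min and 1.25 (1.14 to 1.38) at 30 min. Both comparisons use the same 0 min library. Of the 14 windows, 11 had a depth-scaled ratio above 1 at 5 min, over a range of 0.759 to 1.81, and 12 at 30 min, over 0.863 to 1.61. Between 30 and 5 min the HOXA change was 1.01 (0.907 to 1.13). Under the other choices of flank, cluster edge and count filter for which an interval was computed, each flank alone included, the intervals of the 5 and 30 min changes in HOXA stayed above 1. With the median of the windows, which gave no interval, the changes were 1.30 and 1.36. The change was 1.32 against the lower-coordinate flank and 1.17 against the other at 5 min, and 1.27 and 1.24 at 30 min.

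In HOXC the PARP1 level was 1.02, 1.03 and 1.17 at 0, 5 and 30 min. The mean window held 278, 337 and 401 reads. The change against the flanks was 1.01 (0.890 to 1.14) at 5 min and 1.14 (1.03 to 1.27) at 30 min. After scaling by library totals, the HOXC ratios to 0 min were 1.16 (1.03 to 1.30) and 1.27 (1.15 to 1.40). Its flanks had 1.15 (1.10 to 1.20) and 1.11 (1.07 to 1.15), while all of chromosome 12 had 0.996 and 0.998. At 5 min the cluster and the megabase around it were thus higher by about the same ratio. At 30 min all 12 windows were above 1, from 1.05 to 1.44, and 9 of 12 were above the flank ratio of 1.11. With the median of the windows in place of the mean, the HOXC change against the flanks at 30 min was 1.06. Between 30 and 5 min the HOXC change was 1.14 (1.01 to 1.27). Its interval included 1 without the first and last window, and against the lower-coordinate flank alone.

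In HOXB the depth-scaled PARP1 ratio was 1.22 (1.11 to 1.33) at 5 min and 1.07 (0.994 to 1.16) at 30 min. The flanks had 1.13 (1.09 to 1.18) and 1.07 (1.03 to 1.11), and chromosome 17 had 1.09 and 1.06. Against its flanks the change of HOXB was therefore 1.07 (0.972 to 1.18) and 1.00 (0.923 to 1.09). Between 30 and 5 min the depth-scaled ratio of HOXB was 0.882 (0.810 to 0.961).

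HOXD as a whole showed no PARP1 difference beyond its widened interval. The mean window held 143, 139 and 167 reads at 0, 5 and 30 min. The change against the flanks was 0.943 (0.788 to 1.13) at 5 min and 1.05 (0.904 to 1.22) at 30 min. The counting intervals were 0.879 to 1.01 and 0.979 to 1.12. Between 30 and 5 min the HOXD change was 1.11 (counting 1.04 to 1.19, widened 0.932 to 1.33).

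**Figure D2:**
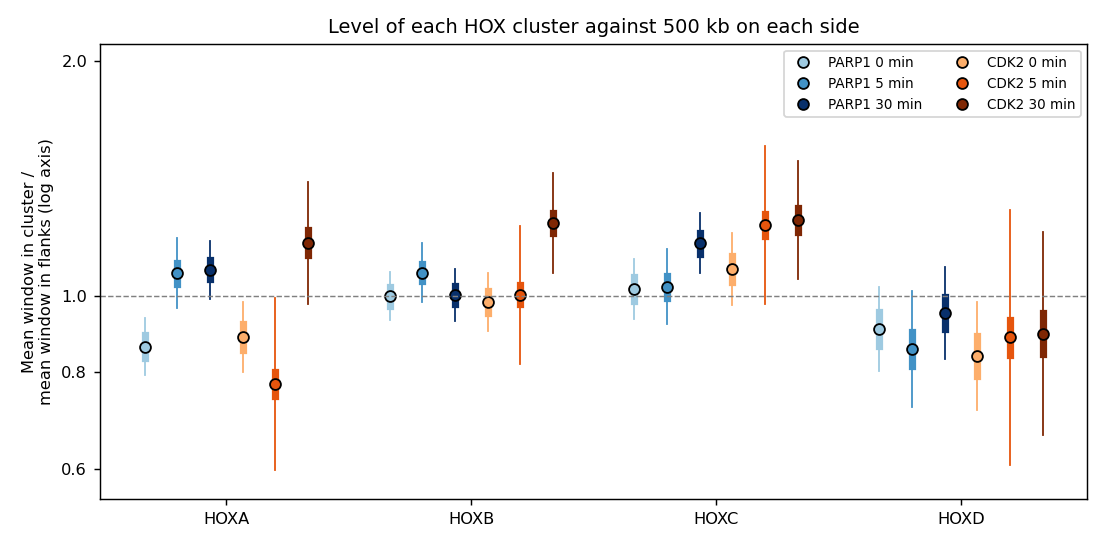
Mean window in each HOX cluster over the mean window in the 500 kb on each side (log axis, dashed line at 1), for each of the 6 libraries. Thick bars are 95% counting intervals and thin bars the widened intervals. HOXA lies below 1 in PARP1 and CDK2 at 0 min and in CDK2 at 5 min, and above 1 in the 3 remaining libraries.

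For CDK2, the level in HOXA at 30 min was 1.17 (0.977 to 1.40), beside 0.887 at 0 min, a change of 1.32 (1.08 to 1.61). The mean HOXA window held 213 reads at 0 min and 239 at 30 min, while the mean flank window held 241 and 205. Of the 14 windows 12 had a depth-scaled ratio above 1. The interval of this change lay above 1 with each flank alone (1.36 and 1.28) and under each of the other settings for which an interval was computed. At 5 min the HOXA level was 0.772 (0.599 to 0.995) and the change 0.870 (0.673 to 1.12), which includes 1. The level's interval included 1 without the first and last window, at 0.850. The windows of that library spread from 83 to 403 reads in HOXA. Between 30 and 5 min the HOXA change for CDK2 was 1.51 (1.13 to 2.04), which uses the same 5 min library.

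In HOXB, too, CDK2 was higher against the flanks at 30 min. The level was 0.982, 1.00 and 1.24 (1.07 to 1.44) at 0, 5 and 30 min, and the change at 30 min was 1.26 (1.07 to 1.49). Against the higher-coordinate flank alone that change was 1.17, with an interval that included 1. The depth-scaled ratio was 1.31 (1.13 to 1.53), beside 1.04 (0.969 to 1.12) in the flanks and 1.12 on chromosome 17. At 5 min the change against the flanks was 1.02 (0.829 to 1.26).

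In HOXC the CDK2 level was 1.08, 1.23 and 1.25 at 0, 5 and 30 min. The change against the flanks was 1.14 (0.886 to 1.46) at 5 min and 1.16 (0.946 to 1.41) at 30 min, and both include 1. The depth-scaled ratio at 30 min was 1.40 (1.16 to 1.69), with 1.21 (1.13 to 1.30) in its flanks and 0.985 on chromosome 12. Of its 12 windows 6 were above that flank ratio. The median of the single-window ratios at 30 min was 1.19 in HOXC, beside 1.32 in HOXB, 1.27 in HOXA and 0.810 in HOXD. In HOXD 5 of 12 windows had a ratio above 1. In HOXD the change was 1.06 (0.718 to 1.55) at 5 min and 1.07 (0.775 to 1.47) at 30 min.

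**Figure D3:**
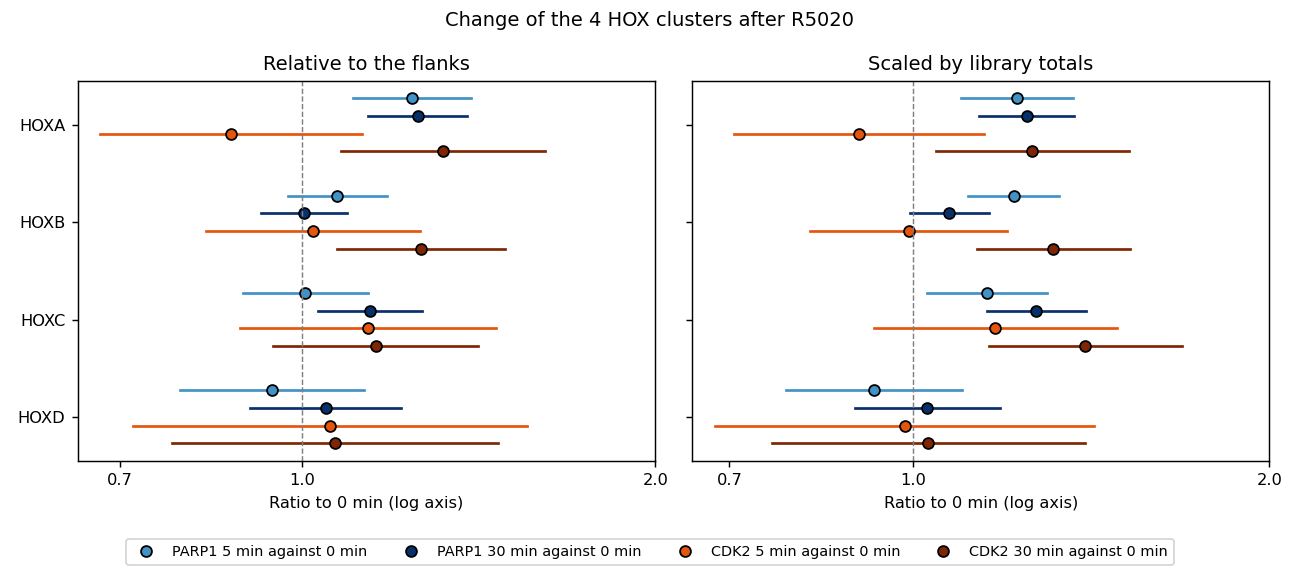
Ratio to 0 min of PARP1 (blue) and CDK2 (orange) at 5 and 30 min in each HOX cluster (log axis, dashed line at 1), relative to the flanks on the left and scaled by library totals on the right. Points are ratios of summed reads and bars the widened 95% intervals. Relative to the flanks, PARP1 at 5 and 30 min and CDK2 at 30 min have intervals above 1 in HOXA, CDK2 at 30 min in HOXB and PARP1 at 30 min in HOXC.

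Set beside all windows, the 59 HOX windows had higher medians after hormone. The median depth-scaled ratio to 0 min was 1.16 for PARP1 at 5 min, beside 0.991 over all windows compared, and 42 of 59 windows (71.2%) were above 1, beside 48.6%. For PARP1 at 30 min it was 1.13 beside 0.996, with 47 of 59 (79.7%) above 1 beside 49.3%. For CDK2 at 30 min it was 1.24 beside 0.962, with 44 of 59 (74.6%) beside 46.7%. For CDK2 at 5 min it was 1.02 beside 0.955, with 32 of 59 (54.2%) beside 46.5%. In HOXD alone the medians were 0.943 and 1.01 for PARP1 at 5 and 30 min, and 0.961 and 0.810 for CDK2. Those for PARP1 at 5 min and CDK2 at 30 min were below the medians over all windows. The HOXA median for CDK2 at 5 min, 0.937, was below as well. Windows of 1 cluster neighbour each other and are not independent. For PARP1 the flanks of HOXB and HOXC and all of chromosome 17 were above 1 as well, as given above, and the part of gene density or base composition in these ratios was not tested.

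For single windows a call needed a depth-scaled ratio of 2 or more, or of 0.5 or less, together with an exact binomial test of the reads that passed 0.05 after adjustment over all windows compared. This compares 2 libraries, not the conditions. For PARP1 few HOX windows were called. At 5 against 0 min it was 0 higher (0.893% of all windows) and 1 lower (1.73%), and at 30 against 0 min 0 higher (0.406%) and 0 lower (0.587%). Between 30 and 5 min it was 0 higher (1.3%) and 1 lower (0.8%). The 2 called windows were both in HOXD. Window 177040001 to 177050000 of chromosome 2 held 146, 75 and 148 PARP1 reads at 0, 5 and 30 min, and 177020001 to 177030000 held 127, 185 and 99. The highest single-window PARP1 ratios to 0 min in HOXA were 1.81 at 5 min and 1.61 at 30 min. In HOXC they were 1.69 and 1.44. Calls at a limit of 2 cannot show how the smaller differences of these whole clusters were spread over their windows.

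For CDK2 more windows were called, in HOX clusters as elsewhere. At 5 against 0 min it was 2 of 59 higher (3.39%) beside 6.21% of all windows, and 7 lower (11.9%) beside 16.2%. At 30 against 0 min it was 7 higher (11.9%) beside 5.46%, and 2 lower (3.39%) beside 11.5%. Between 30 and 5 min it was 12 higher (20.3%) beside 18.4%, and 2 lower (3.39%) beside 15.1%. After the counts were divided by the dispersion of the comparison, 0 of the 59 windows were called in any of the 9 comparisons. Over all windows that rule called 0.000359%, 0.00251% and 0.000359% for PARP1 at 5 against 0, 30 against 0 and 30 against 5 min, 0.000359%, 0% and 0.000718% for CDK2, and 0.00431%, 0.00287% and 0.00323% for CDK2 against PARP1 at 0, 5 and 30 min.

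In HOXA, window 27180001 to 27190000 of chromosome 7 held 149, 403 and 294 CDK2 reads at 0, 5 and 30 min, with ratios to 0 min of 2.11 (counting interval 1.75 to 2.57, widened 0.792 to 6.52) and 2.22 (counting 1.82 to 2.72, widened 1.00 to 5.23). PARP1 held 209, 199 and 252 reads there. Window 27230001 to 27240000 held 239, 83 and 310 CDK2 reads, a ratio of 0.271 (counting 0.209 to 0.349, widened 0.0537 to 1.01) at 5 min. In HOXD, window 176980001 to 176990000 of chromosome 2 held 102, 0 and 204 CDK2 reads. It was at least 43.6-fold lower at 5 than at 0 min, with 3 reads in that library as the floor. The widened interval of that ratio, 0 to 1.11, included 1. At 30 min its ratio was 2.25 (counting 1.77 to 2.88, widened 0.855 to 6.54), while PARP1 held 141, 147 and 163 reads. A window with 0 reads was found in 1.43% of all windows compared in that CDK2 library. In HOXD window 177040001 to 177050000 CDK2 had 77, 291 and 33 reads, high at 5 min, where PARP1 was low as given above. The widened intervals of both 5 min ratios to 0 min included 1, at 0.810 to 15.6 for CDK2 and 0.220 to 1.03 for PARP1.

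At the higher-coordinate end of HOXB, where HOXB13 lies in gene order, 2 windows were called higher for CDK2 at 30 min. Window 46800001 to 46810000 of chromosome 17 held 181, 308 and 456 CDK2 reads at 0, 5 and 30 min, a ratio of 2.83 (counting 2.38 to 3.39, widened 1.43 to 5.96) at 30 min. Window 46780001 to 46790000 held 186, 336 and 355, a ratio of 2.15 (counting 1.79 to 2.58, widened 1.05 to 4.59). PARP1 held 292, 332 and 310 reads in the former and 286, 364 and 270 in the latter. In HOXC the 2 windows called for CDK2 at 30 against 0 min were neighbours. Window 54370001 to 54380000 of chromosome 12, also the HOXC window with the highest mean over the 6 libraries, held 232, 448 and 501 CDK2 reads (ratio 2.43, counting 2.08 to 2.85, widened 1.31 to 4.70) and 301, 336 and 492 PARP1 reads. Window 54360001 to 54370000 held 268, 386 and 486 CDK2 reads (ratio 2.04, counting 1.75 to 2.38, widened 1.13 to 3.81) and 282, 266 and 412 PARP1 reads. Both proteins had their highest count at 30 min in these 2 windows.

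The other windows with the highest mean depth were 27130001 to 27140000 in HOXA, with 330, 347 and 390 PARP1 and 231, 298 and 272 CDK2 reads at 0, 5 and 30 min, 46660001 to 46670000 in HOXB, with 361, 413 and 352 PARP1 reads, and 177030001 to 177040000 in HOXD, with 135, 167 and 173. The lowest were 27200001 to 27210000 in HOXA, with 223, 332 and 245 PARP1 reads, 46720001 to 46730000 in HOXB, with 237, 337 and 289, 54430001 to 54440000 in HOXC, with 236, 419 and 355, and 176940001 to 176950000 in HOXD, with 134, 92 and 187. In HOXA, HOXB and HOXC each of these lowest windows had its highest PARP1 count at 5 min.

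Along each cluster the windows were also split at the middle by position, a division made after the values had been seen. In HOXA the PARP1 change against the flanks was 1.20 (1.03 to 1.40) at 5 min and 1.19 (1.05 to 1.36) at 30 min over the 7 windows at the HOXA2 end. It was 1.29 (1.09 to 1.51) and 1.32 (1.15 to 1.52) over the 7 at the HOXA13 end. Both ends thus had intervals above 1, and those of the 2 ends overlapped. The CDK2 change at 30 min was 1.25 (0.954 to 1.64) at the HOXA2 end and 1.39 (1.05 to 1.84) at the HOXA13 end. In HOXB the CDK2 change at 30 min was 1.15 (0.917 to 1.44) over the 10 windows at the HOXB1 end and 1.497 (1.19 to 1.88) over the 10 at the HOXB13 end, with the middle window left out. In HOXC it was 1.31 (1.00 to 1.71) over the 6 windows at the HOXC13 end and 1.00 (0.753 to 1.33) over the 6 at the HOXC4 end. In HOXD it was 1.23 (0.805 to 1.89) over the 6 windows at the HOXD13 end and 0.902 (0.569 to 1.43) over the 6 at the HOXD1 end. At 5 min the CDK2 values lay the other way round. They were 0.813 at the HOXA13 end and 0.922 at the HOXA2 end, 0.966 at the HOXB13 end and 1.14 at the HOXB1 end, 1.13 at the HOXC13 end and 1.15 at the HOXC4 end, and 0.690 at the HOXD13 end and 1.42 at the HOXD1 end, each with an interval that included 1. In every cluster and at both times the intervals of the 2 ends overlapped, and their difference was not tested. PARP1 at 30 min in HOXC was 1.16 (1.01 to 1.32) and 1.13 (0.972 to 1.31) at these ends.

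Both proteins were also compared within each time. Since antibodies differ in yield, these ratios say where in the genome the reads of a library fell and not how much protein was bound. Before hormone the clusters had CDK2 levels against flanks over PARP1 levels of 1.03 (0.924 to 1.15) in HOXA, 0.983 (0.897 to 1.08) in HOXB, 1.06 (0.947 to 1.19) in HOXC and 0.925 (0.786 to 1.09) in HOXD, all including 1. At 5 min HOXA had 0.722 (0.560 to 0.931), where the level was 0.772 (0.599 to 0.995) for CDK2 and 1.07 (0.964 to 1.18) for PARP1, the latter including 1. Without its first and last window HOXA had 0.794, and the interval included 1. HOXC had 1.20 (0.934 to 1.54) at 5 min. At 30 min HOXB had 1.24 (1.06 to 1.44) and HOXA 1.08 (0.903 to 1.30). For HOXB the interval included 1 against the higher-coordinate flank alone, with 1.18.

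Called windows between the antibodies were 0 higher for CDK2 (0.442% of all windows) and 0 lower (0.733%) at 0 min. At 5 min they were 3 of 59 higher (5.08%) beside 8.02% and 10 lower (16.9%) beside 17%. At 30 min they were 2 higher (3.39%) beside 3.84% and 2 lower (3.39%) beside 10.3%. The 2 higher at 30 min were the windows of the HOXB13 end named above.

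The surroundings were followed in steps of 50 kb out to 500 kb on each side, 20 steps per cluster, chosen after the data had been seen. The HOXA cluster had PARP1 ratios to 0 min of 1.22 at 5 min and 1.25 at 30 min by library totals, above all 20 surrounding steps, which ranged from 0.770 to 1.22 and from 0.819 to 1.21. At 5 min the highest step came within rounding of the cluster. For HOXC at 30 min, 19 of 20 steps lay below the cluster's 1.27, and 19 of 20 lay above 1. For HOXC at 5 min 10 of 20 lay below the cluster. For HOXB 12 of 20 steps lay below the cluster's 1.22 at 5 min, where 18 lay above 1, and 9 of 20 lay below the cluster at 30 min. For HOXD it was 5 of 20 at 5 min and 14 of 20 at 30 min. For CDK2 at 30 min 18 of 20 steps lay below the cluster in HOXA, HOXB and HOXC alike, and 12 of 20 in HOXD. For CDK2 at 5 min it was 4 of 20 in HOXA, 11 in HOXB, 16 in HOXC and 12 in HOXD. A step of 50 kb holds fewer windows than a cluster, so its counting error is larger. The steps also differed beyond counting. In HOXA for PARP1 at 5 min they ran from 0.770 (counting 0.717 to 0.828) to 1.22 (counting 1.14 to 1.31). The dispersion of a comparison was taken around its local ratio, so the widened intervals may not cover all of such differences between stretches.

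**Figure D4:**
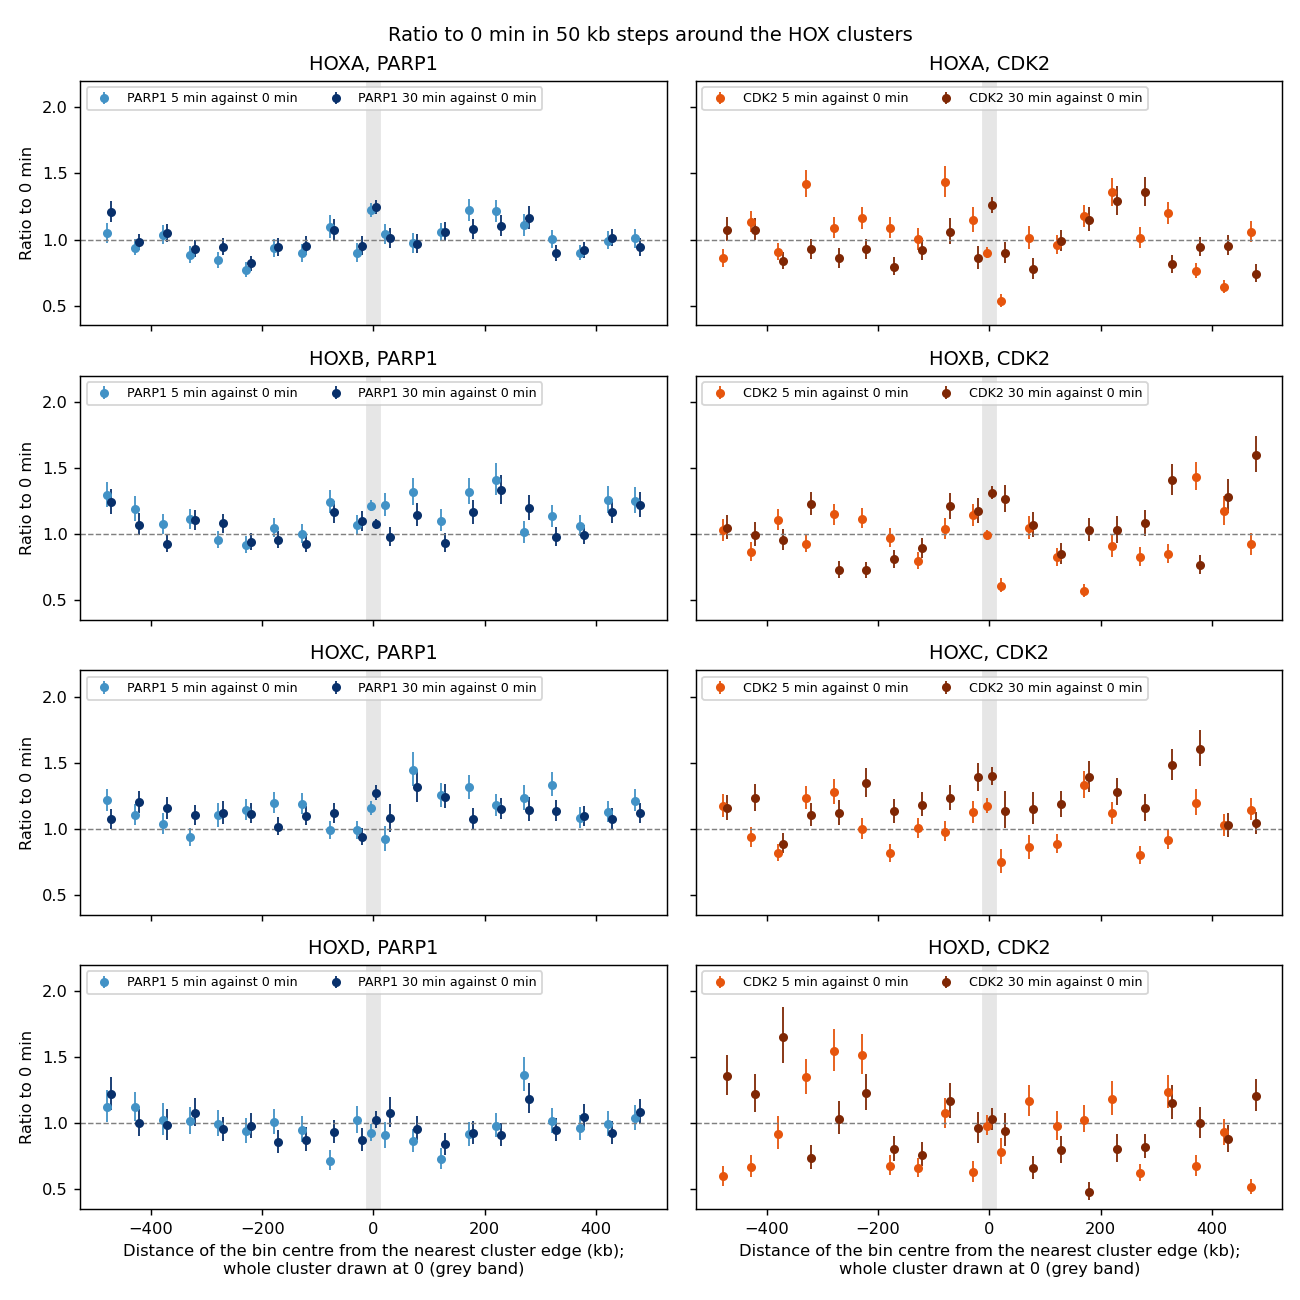
Ratio of depth-scaled reads to 0 min (vertical axis, dashed line at 1) in steps of 50 kb by distance of the step's centre from the nearest cluster edge in kb, with the whole cluster drawn at 0, for PARP1 (left) and CDK2 (right) at 5 and 30 min. Bars are 95% counting intervals. The HOXA cluster lies above all 20 surrounding steps for PARP1, and in each cluster the CDK2 steps span a wider range than the PARP1 steps at the same time.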

How the data were processed

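ChIP-seq reads of CDK2 and PARP1 in T47D-MTVL cells were analysed in 6 libraries, 1 per antibody and time, grouped by their titles. The authors deposited raw read counts in windows of 10 kb along 23 chromosomes, without normalization, per the file headers. The submitters' processing notes name Bowtie 1.0.0 and hg19. How duplicate or multiply matching reads were treated is, in the sources used here, not given.

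The HOX windows and the lists in this text were chosen with earlier results of these data known. Windows with a mean of at least 10 reads were compared. The level of a cluster is its mean window over that of 500 kb on each side, and a change is a ratio of 2 levels, which needs no scaling. Depth-scaled ratios use library totals. Intervals cover 95%. Counting intervals of depth-scaled ratios are exact binomial, and those of levels and changes are normal on the log scale. Widened intervals of clusters and flanks are normal on the log scale, with the variance multiplied by the dispersion. Widened intervals of single windows are exact binomial on reads divided by the dispersion. The local ratio for the dispersion of a comparison was taken over 20 windows on each side. Windows were called across all windows compared, by the ratio limits of 2 and 0.5 and an exact binomial test with Benjamini-Hochberg adjustment. On simulated Poisson libraries with 3-fold changes the call found 100% of raised and 94 to 99% of lowered windows, with 0 to 2 false calls per comparison of 278395 windows. That simulation holds no duplicated reads.

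Named were, by rule, the highest and lowest window of each cluster by mean depth, and up to 2 called windows per cluster, direction and comparison, of which the text gives a selection. Partner genes of HOX proteins were not analysed here, since the gene table was of another build. Alternatives were TMM factors (edgeR 4.0.16) and median-of-ratios factors (DESeq2 1.42.0), used for scaling only, other scalings, flanks, cluster edges, count minimums and fold limits, and thinning. Computation used Python 3.11.15, numpy 2.4.6, scipy 1.17.1, pandas 2.3.3, matplotlib 3.10.9 and R 4.3.3.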

Additional observations from a re-analysis of the deposited data

How the results depend on the processing

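Each alternative changed 1 choice at a time, and a cluster value counts as clear of 1 when its widened interval lies on 1 side of 1. No called cluster value changed its side of 1. The settings with no count minimum and without the top 1% of windows gave the same levels and changes by construction, since no HOX or flank window was left out or added, and medians gave no interval. Among the other alternatives, 207 of 216 for changes against flanks, 162 of 180 for depth-scaled ratios and 110 of 144 for levels kept their call and stayed within the widened interval, a wide tolerance, since 51, 32 and 39 of these lay outside the counting interval. The flanks on 1 side alone and the window at the upper bound of a range were added after seeing the data. The HOXA changes of PARP1 at 5 and 30 min and of CDK2 at 30 min, and that of PARP1 at 30 min in HOXC, kept their interval above 1 wherever one was computed. For the others below the cause was not tested.

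Levels against flanks that were no longer clear of 1 were, with a flank of 200 kb, HOXA CDK2 at 0 min at 0.974, HOXA CDK2 at 5 min at 0.849 and HOXA PARP1 at 0 min at 0.933, and with the lower-coordinate flank alone, HOXA CDK2 at 0 min at 0.897, HOXC CDK2 at 30 min at 1.19 and HOXD CDK2 at 0 min at 0.869, and with the first and last window of each cluster left out, HOXA CDK2 at 5 min at 0.850 and HOXD CDK2 at 0 min at 0.861, and with the higher-coordinate flank alone, HOXA CDK2 at 5 min at 0.822. Levels against flanks that became clear of 1 were, with a flank of 200 kb, HOXA CDK2 at 30 min at 1.32, HOXA PARP1 at 5 min at 1.13, HOXA PARP1 at 30 min at 1.16, HOXC CDK2 at 0 min at 1.13 and HOXC CDK2 at 5 min at 1.35, and with the lower-coordinate flank alone, HOXA CDK2 at 30 min at 1.22, HOXA PARP1 at 5 min at 1.14, HOXA PARP1 at 30 min at 1.10, HOXB CDK2 at 0 min at 0.885 and HOXB PARP1 at 0 min at 0.904, and with the window at the upper bound added, HOXA PARP1 at 30 min at 1.09, and with a flank of 1000 kb, HOXB PARP1 at 5 min at 1.12, HOXC CDK2 at 0 min at 1.12, HOXC CDK2 at 5 min at 1.30 and HOXD PARP1 at 5 min at 0.832, and with the higher-coordinate flank alone, HOXB PARP1 at 5 min at 1.13, HOXB PARP1 at 30 min at 1.09, HOXC CDK2 at 0 min at 1.18, HOXC CDK2 at 5 min at 1.35, HOXC PARP1 at 0 min at 1.11, HOXD PARP1 at 0 min at 0.867 and HOXD PARP1 at 5 min at 0.821. Levels against flanks that left the widened interval were, with the higher-coordinate flank alone, HOXB CDK2 at 0 min at 1.10 and HOXB PARP1 at 0 min at 1.12, and with the lower-coordinate flank alone, HOXB PARP1 at 30 min at 0.929.

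Changes against flanks that were no longer clear of 1 were, with the first and last window of each cluster left out, HOXC PARP1 30 min against 5 min at 1.12 and HOXA CDK2 against PARP1 at 5 min at 0.794, and with the lower-coordinate flank alone, HOXC PARP1 30 min against 5 min at 1.10, and with the higher-coordinate flank alone, HOXB CDK2 30 min against 0 min at 1.17, HOXA CDK2 against PARP1 at 5 min at 0.820 and HOXB CDK2 against PARP1 at 30 min at 1.18. Changes against flanks that became clear of 1 were, with the lower-coordinate flank alone, HOXB PARP1 5 min against 0 min at 1.13 and HOXB CDK2 30 min against 5 min at 1.39, and with a flank of 1000 kb, HOXB PARP1 30 min against 5 min at 0.908.

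Depth-scaled ratios that were no longer clear of 1 were, with scaling by the windows of lowest mean, HOXA CDK2 30 min against 5 min at 1.18, HOXB CDK2 30 min against 5 min at 1.12 and HOXA CDK2 against PARP1 at 5 min at 0.930, and with the first and last window of each cluster left out, HOXA CDK2 30 min against 5 min at 1.30 and HOXA CDK2 against PARP1 at 5 min at 0.811, and with scaling by the cluster's own chromosome, HOXB CDK2 30 min against 5 min at 1.10. Depth-scaled ratios that became clear of 1 were, with scaling by the windows of lowest mean, HOXB PARP1 30 min against 0 min at 1.10, HOXC CDK2 5 min against 0 min at 1.53, HOXC CDK2 against PARP1 at 5 min at 1.34 and HOXC CDK2 against PARP1 at 30 min at 1.24, and with the first and last window of each cluster left out, HOXB CDK2 against PARP1 at 5 min at 0.816, and with TMM factors, HOXC CDK2 against PARP1 at 30 min at 1.19, and with median-of-ratios size factors, HOXC CDK2 against PARP1 at 30 min at 1.20, and with scaling by the cluster's own chromosome, HOXC CDK2 against PARP1 at 30 min at 1.25. Depth-scaled ratios that left the widened interval were, with scaling by the windows of lowest mean, HOXA CDK2 5 min against 0 min at 1.17, HOXB CDK2 5 min against 0 min at 1.29 and HOXB CDK2 against PARP1 at 5 min at 1.04, and with scaling by the cluster's own chromosome, HOXB CDK2 against PARP1 at 5 min at 1.03.

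Scaling by the windows of lowest mean moved all log2 ratios by 0.38 for CDK2 at 5 against 0 min, 0.13 at 30 against 0 min, -0.24 at 30 against 5 min and 0.33 for CDK2 against PARP1 at 5 min.

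Counts of called HOX windows that moved by over 1.5 times were as follows. Except for division by the dispersion, given above, the share of all windows called under these settings was not computed. The counts thus show how the HOX calls moved, and not how HOX windows stood beside all windows. With scaling by the windows of lowest mean, called were 0 lower for PARP1 5 min against 0 min, 7 higher for CDK2 5 min against 0 min, 4 lower for CDK2 5 min against 0 min, 0 lower for CDK2 30 min against 0 min, 7 higher for CDK2 30 min against 5 min, 6 higher for CDK2 against PARP1 at 5 min, 6 lower for CDK2 against PARP1 at 5 min, 1 lower for CDK2 against PARP1 at 30 min. With scaling by the cluster's own chromosome, called were 0 lower for PARP1 5 min against 0 min, 0 lower for CDK2 30 min against 0 min, 4 higher for CDK2 against PARP1 at 30 min, 1 lower for CDK2 against PARP1 at 30 min. With a fold limit of 1.5, called were 6 higher for PARP1 5 min against 0 min, 2 lower for PARP1 5 min against 0 min, 1 higher for PARP1 30 min against 0 min, 4 higher for PARP1 30 min against 5 min, 8 higher for CDK2 5 min against 0 min, 13 lower for CDK2 5 min against 0 min, 17 higher for CDK2 30 min against 0 min, 5 lower for CDK2 30 min against 0 min, 20 higher for CDK2 30 min against 5 min, 3 lower for CDK2 against PARP1 at 0 min, 7 higher for CDK2 against PARP1 at 5 min, 18 lower for CDK2 against PARP1 at 5 min, 9 higher for CDK2 against PARP1 at 30 min, 5 lower for CDK2 against PARP1 at 30 min. With a fold limit of 3, called were 0 lower for PARP1 5 min against 0 min, 0 lower for PARP1 30 min against 5 min, 0 higher for CDK2 5 min against 0 min, 3 lower for CDK2 5 min against 0 min, 0 higher for CDK2 30 min against 0 min, 0 lower for CDK2 30 min against 0 min, 4 higher for CDK2 30 min against 5 min, 1 lower for CDK2 30 min against 5 min, 1 higher for CDK2 against PARP1 at 5 min, 2 lower for CDK2 against PARP1 at 5 min, 0 higher for CDK2 against PARP1 at 30 min, 0 lower for CDK2 against PARP1 at 30 min. With counts divided by the dispersion, called were 0 in all 9 comparisons. With libraries thinned to the smallest total, called were 0 lower for PARP1 30 min against 5 min, 1 lower for CDK2 against PARP1 at 30 min. With TMM factors, called were 1 lower for CDK2 30 min against 0 min, 1 lower for CDK2 against PARP1 at 30 min. With median-of-ratios size factors, called were 0 lower for CDK2 30 min against 0 min, 1 lower for CDK2 against PARP1 at 30 min.

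No paired analysis was possible because each group has 1 library, and leaving out a replicate does not apply.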
